A study of Mus musculus with 40 samples.

Results

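The 45 genes described here are genes of DNA replication and mitosis in mouse cardiac fibroblasts, chosen by name from a list of cell cycle genes, with earlier results of these data known. All 45 were found by symbol among the 55414 rows of the count table and all 45 were among the 25210 genes tested. They fall into 7 role classes: origin licensing and the replicative helicase (12 genes), the replication fork (6), nucleotide supply and repair (5), G1/S regulators (3), mitotic cyclins, kinases and regulators (9), the spindle checkpoint (3), and chromosomes, kinetochores and motors (7). The list marks cells in cycle and is no cell type, so it has no markers to be checked against other than its own members.

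RNA was sequenced from fibroblasts isolated from hearts of C57BL/6J TAK1fl/fl mice, in which loxP sites flank an exon of *Map3k7*, the gene for TAK1. All cells carried the floxed alleles and were used at passage 1 after growth in medium that itself contained bFGF (20 ng/ml). They were transduced with an adenovirus for LacZ, the control, or for Cre recombinase (iCre), then serum-starved. For the next 24 h they received TNFα or TGFβ, both at 10 ng/ml, IL-1β at 15 ng/ml, bFGF at 20 ng/ml, or none of these (CTRL). Each of the 10 groups of virus by ligand had 4 replicates, which gave 40 libraries. The study describes these as biological replicates from male mice. Every group received a virus, which need not reach every cell. The labels do not tie replicates to mice or isolations, and p-values measure the spread between these libraries.

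Cells leave quiescence when D-type cyclins with their kinases phosphorylate the retinoblastoma family, which frees E2F factors to switch on the genes for origin licensing, the helicase, the fork and nucleotide synthesis. Genes for mitosis are switched on later, by B-MYB with the MuvB core and by FOXM1, through promoter words named CHR. In quiescent cells the pocket proteins with MuvB keep both sets silent. The letters CCAAT are also common in promoters of mitosis genes. bFGF is a mitogen of fibroblasts. TAK1 is a kinase that relays signals of the TNF, IL-1 and TGFβ receptors to NF-κB and the stress-activated MAP kinases.

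Promoter sequences were in the RefSeq table of GRCm38.p6 for 36 of the 45 genes, as windows of 250 bases before to 50 bases after a gene start. The E2F words TTTCCCGC, TTTGGCGC, TTTCGCGC and TTTGCCGC, searched on both strands and free to overlap, were in 9 of the 36 windows (25%), against 2.605% of the 27025 genes with a window. Of the 9, 6 were among the 9 licensing and helicase genes with a window (*Mcm3*, *Mcm5*, *Mcm6*, *Mcm7*, *Cdc6* and *Cdt1*). The CHR words TTTGAA and TTCGAA were in 16 of the 36 windows (44.4%), against 21.7% of all, and in 12 of the 15 windows of the mitotic, spindle checkpoint and chromosome classes. The letters CCAAT were in 27 of the 36 windows (75.0%), against 41.1% of all. A match is a description of letters and no evidence of binding. The 250 bases before the start are shown for *Mcm5* and *Mcm6*, helicase genes with E2F words. They are also shown for *Cdk1*, *Top2a* and *Kif11*, mitosis genes with CHR words. Each of these genes rose with TNFα in iCre fibroblasts below, as did all 45. They were picked after the matches were seen, are written 5′ to 3′ on the gene's strand, and carry in capitals the words named beside each of them. Other matches stand in lower case, among them CCAAT letters and an E2F word of *Cdk1*.
Mcm5, E2F words, chr8:75109259-75109508, plus strand: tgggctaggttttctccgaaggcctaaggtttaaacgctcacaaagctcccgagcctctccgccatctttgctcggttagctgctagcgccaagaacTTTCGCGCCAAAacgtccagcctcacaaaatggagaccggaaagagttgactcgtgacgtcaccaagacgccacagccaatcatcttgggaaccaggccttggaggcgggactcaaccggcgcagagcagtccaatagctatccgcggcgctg
Mcm6, E2F words, chr1:128359706-128359955, minus strand: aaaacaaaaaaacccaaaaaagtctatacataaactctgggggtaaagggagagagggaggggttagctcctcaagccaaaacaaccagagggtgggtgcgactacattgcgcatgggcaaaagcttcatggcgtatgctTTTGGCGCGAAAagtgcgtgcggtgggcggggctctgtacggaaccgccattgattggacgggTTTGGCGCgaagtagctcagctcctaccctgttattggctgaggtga
Cdk1, CHR words, chr10:69352913-69353162, minus strand: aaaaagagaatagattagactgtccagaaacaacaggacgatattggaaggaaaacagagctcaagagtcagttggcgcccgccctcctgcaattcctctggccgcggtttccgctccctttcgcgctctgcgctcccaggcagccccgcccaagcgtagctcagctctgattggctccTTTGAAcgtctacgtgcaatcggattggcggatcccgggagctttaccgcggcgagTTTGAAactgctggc
Top2a, CHR words, chr11:99024190-99024439, minus strand: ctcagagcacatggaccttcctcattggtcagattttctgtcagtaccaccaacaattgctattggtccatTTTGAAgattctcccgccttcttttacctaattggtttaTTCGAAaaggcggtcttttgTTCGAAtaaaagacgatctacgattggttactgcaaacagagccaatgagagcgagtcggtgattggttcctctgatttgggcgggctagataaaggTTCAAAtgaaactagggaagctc
Kif11, CHR words, chr19:37376132-37376381, plus strand: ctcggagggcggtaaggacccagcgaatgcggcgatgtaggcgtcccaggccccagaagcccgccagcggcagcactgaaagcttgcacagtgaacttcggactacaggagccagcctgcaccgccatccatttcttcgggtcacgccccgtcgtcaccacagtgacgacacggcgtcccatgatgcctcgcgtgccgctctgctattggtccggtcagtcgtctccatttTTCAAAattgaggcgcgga

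Between 25360947 and 66160732 reads per library (median 36183962) were counted on genes, and levels are given as CPM, counts per 1000000 of the TMM-scaled library size, which do not allow for gene length. *Map3k7* was at 144 to 251 CPM in the 20 LacZ libraries and at 122 to 160 CPM in the 20 iCre libraries, and reads on every exon were counted, those of recombined transcripts included. Its log2 fold change, iCre against LacZ, was −0.28 (SE 0.07, adjusted p = 0.137) in CTRL, where the test was not passed without the replicate block and was passed with it (adjusted p = 0.00393), and −0.71 (SE 0.10, adjusted p = 0.000829) with TNFα. Fibroblast markers (10 genes) summed to 15351 to 69714 CPM per library, 7 macrophage and leukocyte markers to 16.4 to 161 CPM, 5 endothelial markers to 1.43 to 14.7 CPM and 3 mural markers to 61.3 to 1368 CPM. Cardiomyocyte markers summed to at most 110 CPM and lymphocyte markers to at most 0.175 CPM. The 12 iCre libraries given TNFα, TGFβ or IL-1β differed from the other 28 in the trend of their counts on GC content, with slopes of 0.22 to 0.33 log2 units per 10% GC, against −0.24 to −0.01. The S numbers in the library names ran from 1 to 20 in LacZ and from 21 to 40 in iCre libraries, and those 12 held 29 to 40, so that virus and the order of these numbers cannot be told apart. The other library number was 31 to 40 in replicate 1 and 51 to 80 in replicates 2 to 4. What either number stands for is not given in the sources used here. Libraries that shared a replicate number deviated together, so a fit with the replicate number as a block is given where it changes a result.

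**Figure D1:**
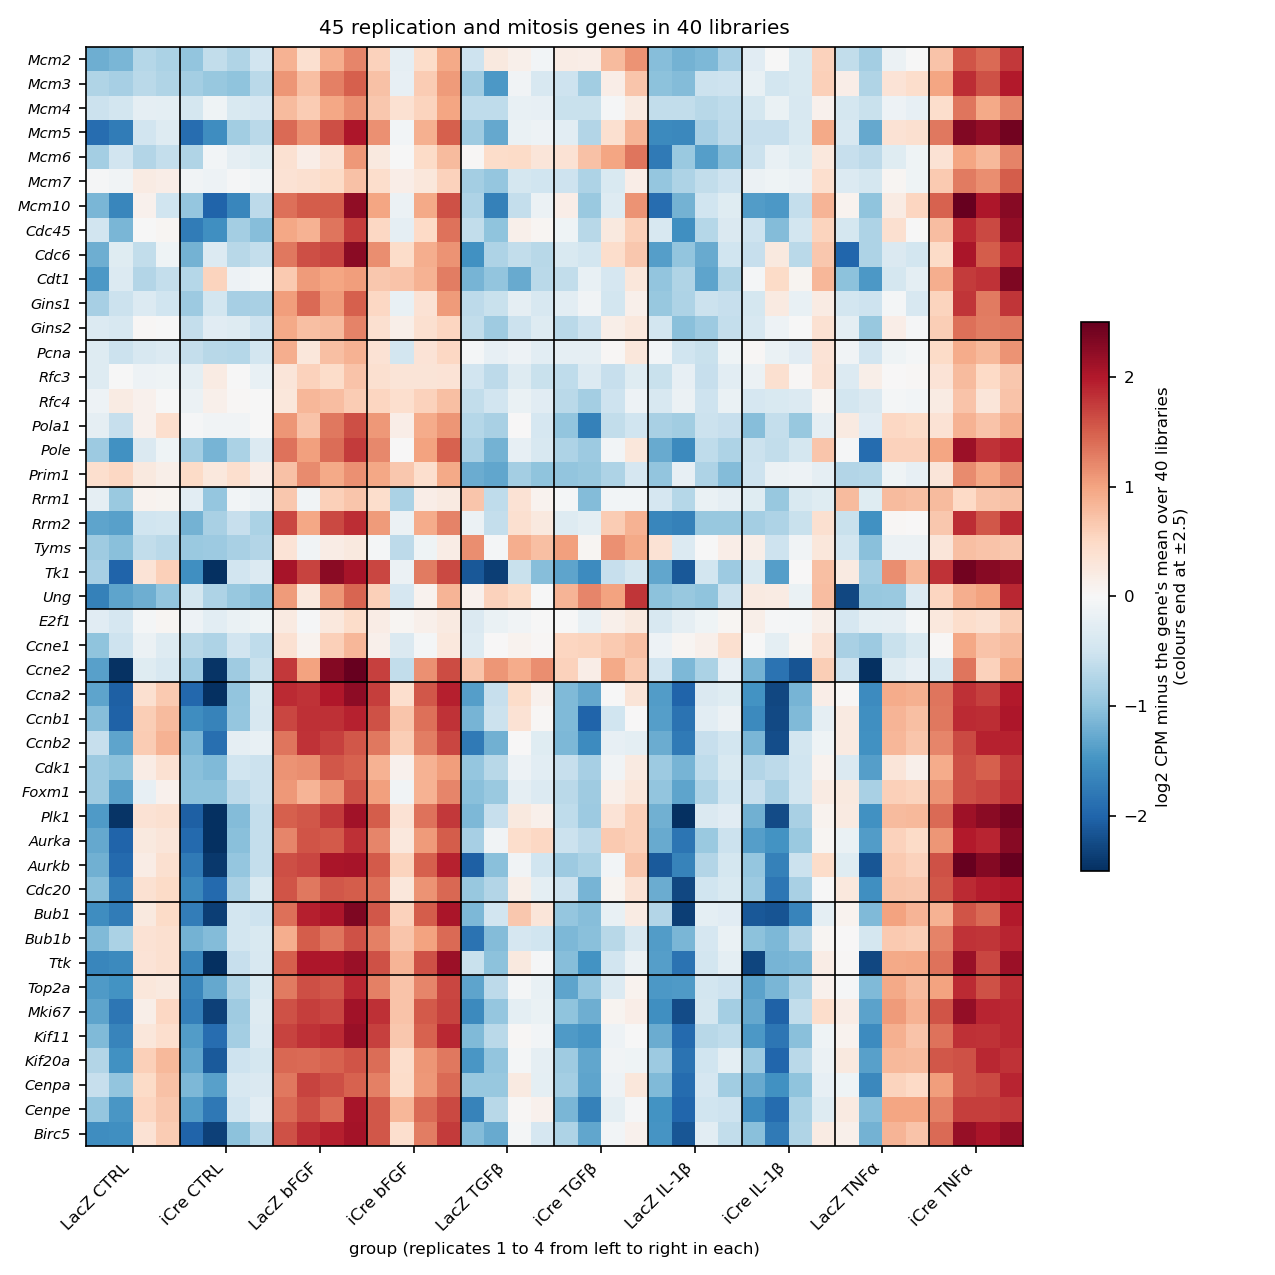
The heat map shows log2 CPM of the 45 genes (rows, split by role class) in the 40 libraries (columns, replicates 1 to 4 from left to right in each group), minus each gene's mean over all libraries, in log2 units. LacZ bFGF, iCre bFGF and iCre TNFα stand out in red, and replicates 1 and 2 are bluer than 3 and 4 in several other groups.

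For 38 of the 45 genes the 3 highest of the 10 group means were those of bFGF with either virus and of TNFα with the iCre virus. The other 7 were *Mcm2*, *Mcm6*, *Rrm1*, *Tyms*, *Ung*, *Ccne1* and *Ccne2*. The mean over the 45 genes of log2 CPM, each gene taken against its own mean over the 40 libraries, lay between 1.11 and 1.57 in the 4 LacZ bFGF libraries, between 0.89 and 1.69 in iCre TNFα, and between 0.19 and 1.23 in iCre bFGF. Replicate 2 was the lowest library in 8 of the 10 groups. The mean was at −1.08 to 0.35 in LacZ TNFα and at most 0.32 in the other 24 libraries outside these groups. In LacZ CTRL it ran from −1.15 to 0.07 and in iCre CTRL from −1.24 to −0.44. In bulk RNA a larger share of cells in cycle and more RNA per cycling cell cannot be told apart.

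In the comparison of iCre TNFα with the mean of the 8 groups other than iCre bFGF and iCre TNFα, 44 of the 45 genes were higher and 0 lower, against 18.6% of all genes tested that were higher. The median log2 fold change of the 45 was 1.82, and that of all genes −0.02. In the same comparison of iCre bFGF, 40 were higher and 0 lower, against 10.1% of all genes, with a median of 1.18 against 0.05. LacZ bFGF is among the 8 groups and raises their mean. Without it, in an alternative chosen after seeing the data, 42 genes were higher in iCre bFGF (11.5% of all genes) and 45 in iCre TNFα (18.5%). None of the 45 had all 4 iCre TNFα libraries above all 32 libraries of the 8 groups, which held for 0.381% of all genes tested, whereas 31 of the 45 had them above the 28 libraries without LacZ bFGF, against 1.31% of all.

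The size of the difference varied among role classes. Against the 8 groups, the licensing and helicase genes differed in iCre TNFα by log2 fold changes from 1.01 (SE 0.15, adjusted p = 1.62e-06) for *Mcm6*, a subunit of the helicase core, to 2.38 (SE 0.26, adjusted p = 4.57e-09) for *Mcm5*, another subunit, and all 12 were higher. In iCre bFGF the same pair were the extremes, with 0.53 (SE 0.16, adjusted p = 0.0165) and 1.22 (SE 0.28, adjusted p = 0.00217). At the fork, *Pole*, the catalytic subunit of the leading-strand polymerase, was highest in both, with 2.01 (SE 0.24, adjusted p = 4.15e-08) and 1.25 (SE 0.26, adjusted p = 0.000758). The smallest fork values were those of *Rfc4*, a clamp loader subunit, in iCre TNFα, 0.62 (SE 0.11, adjusted p = 2.34e-05), and of *Pcna*, the sliding clamp, in iCre bFGF, 0.35 (SE 0.12, adjusted p = 0.0414). Of the nucleotide genes, *Tk1*, the thymidine salvage kinase, was highest, at 2.44 (SE 0.30, adjusted p = 7.90e-08) and 1.52 (SE 0.33, adjusted p = 0.00117). The smallest called values were those of *Tyms*, the thymidylate synthase, in iCre TNFα, 0.65 (SE 0.16, adjusted p = 0.00129), and of *Rrm2*, the regulated subunit of ribonucleotide reductase, in iCre bFGF, 1.07 (SE 0.23, adjusted p = 0.00123).

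Among the G1/S regulators, *Ccne1*, a cyclin of S phase entry, was higher in iCre TNFα by 0.72 (SE 0.13, adjusted p = 2.75e-05), and *E2f1*, an activating E2F factor, by 0.50 (SE 0.08, adjusted p = 5.12e-06). *Ccne2*, the other E cyclin, was the single gene not called in iCre TNFα, with 0.77 (SE 0.37, adjusted p = 0.115). In iCre bFGF *Ccne2* was called, with 1.22 (SE 0.36, adjusted p = 0.0161), whereas *Ccne1* and *E2f1* were not. The mitotic regulators ran from 1.70 (SE 0.20, adjusted p = 2.05e-08) for *Cdk1*, the kinase of mitotic entry, to 2.60 (SE 0.31, adjusted p = 3.67e-08) for *Aurkb*, the kinase of the chromosomal passenger complex, in iCre TNFα, and from 0.98 (SE 0.21, adjusted p = 0.00106) to 1.72 (SE 0.33, adjusted p = 0.000349) for the same pair in iCre bFGF. In the spindle checkpoint, *Ttk*, the MPS1 kinase, was highest in both, at 2.09 (SE 0.33, adjusted p = 5.06e-06) and 1.82 (SE 0.34, adjusted p = 0.000227). The smallest were *Bub1*, a checkpoint kinase, at 1.69 (SE 0.34, adjusted p = 0.000126) in iCre TNFα and *Bub1b*, its relative BUBR1, at 1.39 (SE 0.22, adjusted p = 2.27e-05) in iCre bFGF. Of the chromosome genes, *Birc5* (survivin) was highest and *Cenpa*, the centromeric histone, lowest in iCre TNFα, with 2.24 (SE 0.29, adjusted p = 1.77e-07) and 1.79 (SE 0.25, adjusted p = 7.77e-07). In iCre bFGF these were *Kif11*, a spindle motor, with 1.76 (SE 0.29, adjusted p = 3.97e-05) and *Kif20a*, a motor of cytokinesis, with 1.31 (SE 0.29, adjusted p = 0.00164).

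The genes at these extremes showed the same groups high in single libraries. *Pole* was at 3.70, 2.97, 3.85 and 5.25 CPM in iCre CTRL, 15.2, 6.66, 13.2 and 18.4 CPM in iCre bFGF, 13.1, 29.2, 23.2 and 24.97 CPM in iCre TNFα and 6.48, 1.75, 9.87 and 9.92 CPM in LacZ TNFα. *Rfc4*, 12.7% of whose exonic bases overlap *Eif4a2* on the opposite strand, was at 5.01, 6.06, 5.64 and 5.49 CPM in iCre CTRL, 8.04, 7.39, 8.21 and 9.26 CPM in iCre bFGF, 6.36, 9.02, 6.83 and 9.08 CPM in iCre TNFα and 4.002, 4.30, 5.36 and 5.27 CPM in LacZ TNFα. Both fork genes were above iCre CTRL in all libraries of iCre TNFα. *Aurkb* was at 1.67, 1.07, 2.93 and 3.75 CPM in iCre CTRL, 16.5, 8.39, 16.1 and 21.7 CPM in iCre bFGF, 17.2, 34.99, 28.1 and 34.3 CPM in iCre TNFα and 4.65, 1.29, 9.01 and 8.49 CPM in LacZ TNFα, with all iCre TNFα libraries above the LacZ ones. *Ttk* was at 0.982, 0.398, 2.03 and 2.29 CPM in iCre CTRL, 9.12, 5.46, 9.07 and 13.3 CPM in iCre bFGF, 7.81, 13.5, 9.69 and 13.4 CPM in iCre TNFα and 3.09, 0.629, 5.86 and 5.91 CPM in LacZ TNFα. *Bub1b* was at 8.15, 8.72, 13.6 and 14.3 CPM in iCre CTRL, 44.4, 29.8, 37.3 and 49.2 CPM in iCre bFGF, 43.8, 65.3, 63.6 and 69.7 CPM in iCre TNFα and 18.7, 13.7, 29.4 and 28.4 CPM in LacZ TNFα. In both checkpoint genes LacZ TNFα replicate 2 was the lowest of its group and iCre bFGF replicate 2 the lowest of its own. *Kif11* was at 4.55, 3.18, 6.62 and 9.42 CPM in iCre CTRL, 38.95, 19.1, 33.1 and 44.3 CPM in iCre bFGF, 30.6, 42.5, 41.6 and 44.5 CPM in iCre TNFα and 12.8, 4.02, 22.2 and 19.7 CPM in LacZ TNFα. *Kif20a*, 29.3% of whose exonic bases overlap *Cdc23* on the opposite strand, was at 13.3, 7.53, 22.6 and 23.8 CPM in iCre CTRL, 84.8, 43.9, 69.7 and 80.4 CPM in iCre bFGF, 95.6, 98.1, 119.9 and 113 CPM in iCre TNFα and 38.6, 12.6, 56.9 and 56.03 CPM in LacZ TNFα. *Cenpa* was at 6.51, 5.57, 10.8 and 10.98 CPM in iCre CTRL, 34.1, 19.6, 30.1 and 37.7 CPM in iCre bFGF, 29.1, 42.8, 44.2 and 53.02 CPM in iCre TNFα and 13.1, 4.61, 20.8 and 20.04 CPM in LacZ TNFα, and for each of the 3 chromosome genes the iCre TNFα libraries were above the 4 of iCre CTRL.

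Whether TNFα raised these genes was asked within each virus. In iCre fibroblasts TNFα raised all 45 of 45 against iCre CTRL (14.7% of all genes tested were higher), with log2 fold changes of 0.53 to 3.63 and a median of 2.41, against −0.04 over all genes. In LacZ fibroblasts 1 was higher and 1 lower against LacZ CTRL, where 21.3% of all genes were called in either direction, and the median of the 45 was 0.38 against −0.08. The higher one was *Mcm3*, a helicase subunit, with 0.87 (SE 0.22, adjusted p = 0.0198), and the lower one *Prim1*, the primase that starts each DNA strand, with −0.74 (SE 0.18, adjusted p = 0.0147). Under the replicate block, 28 members were higher and 2 lower in LacZ fibroblasts (35.5% of all genes were called), and 22 of 45 were above CTRL in all 4 same-numbered pairs, against 20.8% of all genes. The difference between both effects was tested as an interaction over 16 libraries. It was called higher in iCre for 35 of 45 genes and lower for 0, against 8.38% of all genes that were higher, with a median of 1.94 against 0.05. Without replicate 3 the count was 11 (2.08% of all genes), without replicate 4 it was 14 (2.88%), and with the GC correction and the block it was 45 (9.58%).

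**Figure D2:**
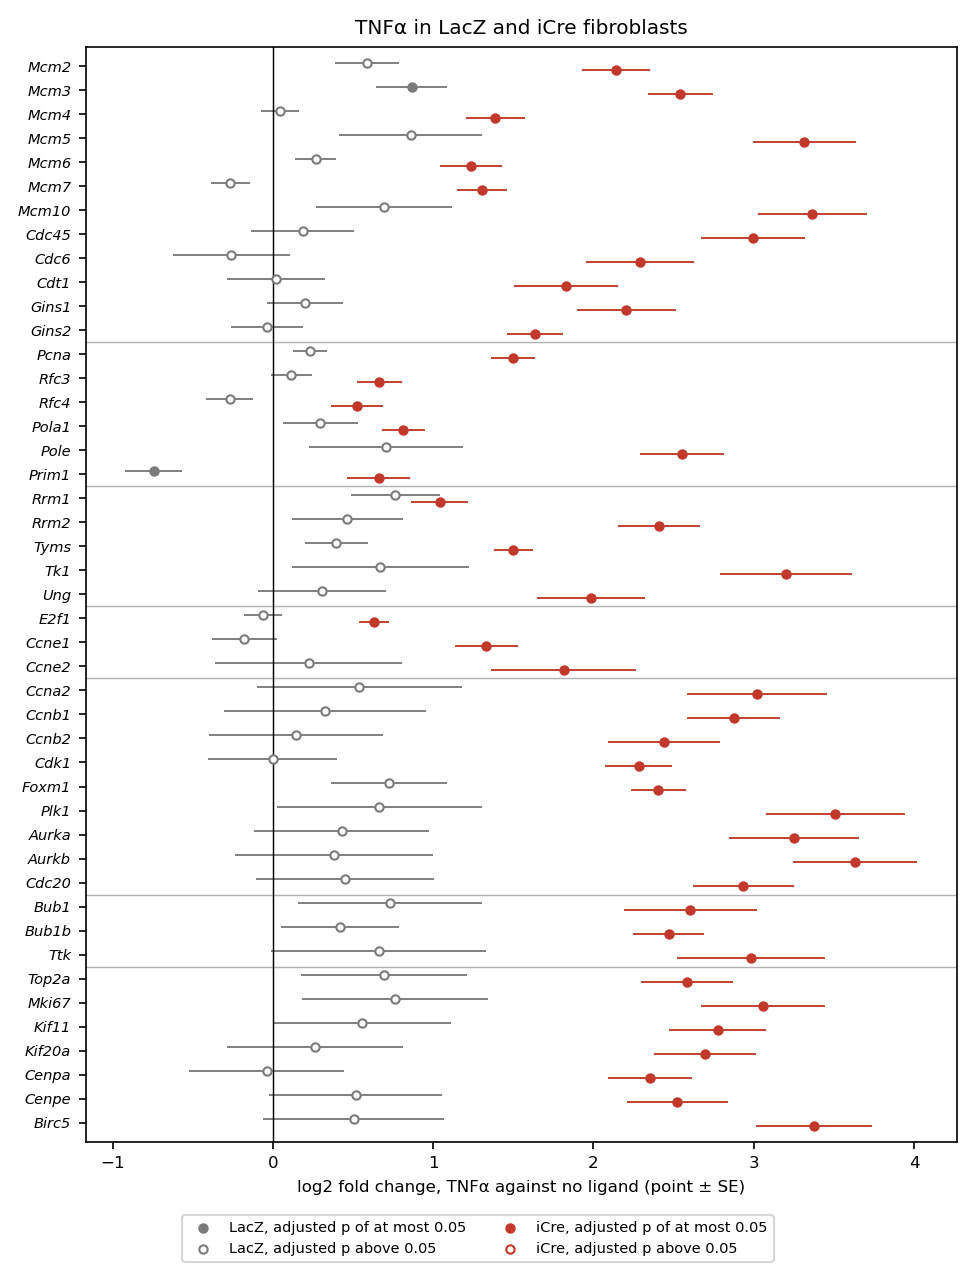
The plot gives the log2 fold change of TNFα against no ligand (horizontal axis, point ± SE) for each of the 45 genes in LacZ (grey) and iCre (red) fibroblasts, filled where the adjusted p was at most 0.05. All 45 red points are filled, and among the grey ones only *Mcm3* and *Prim1*.

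All 12 licensing and helicase genes passed the test of the interaction. *Mcm5* was at 24.5, 48.7, 45.1 and 52.3 CPM in replicates 1 to 4 of iCre TNFα, and at 7.43, 4.05, 12.6 and 12.99 CPM in LacZ TNFα. In iCre CTRL it was at 2.62, 3.34, 5.38 and 6.15 CPM and in LacZ CTRL at 2.61, 2.92, 7.06 and 7.84 CPM. All 4 iCre TNFα libraries were above the other 12, and the log2 fold change of TNFα was 3.31 (SE 0.32, adjusted p = 0.000213) in iCre fibroblasts, with an interaction of 2.44 (SE 0.59, adjusted p = 0.00985). *Cdc6*, which loads the helicase onto origins, was at 2.98, 8.80, 6.15 and 7.81 CPM in iCre TNFα, against 0.543, 1.26, 1.66 and 1.55 CPM in LacZ TNFα. Its CTRL values were 0.949, 1.68, 1.32 and 1.43 CPM in iCre and 0.915, 1.73, 1.40 and 1.98 CPM in LacZ, so that the LacZ TNFα libraries lay within the range of CTRL or below it. The TNFα effect on *Cdc6* was 2.29 (SE 0.34, adjusted p = 0.000998) in iCre fibroblasts and the interaction 2.54 (SE 0.52, adjusted p = 0.0031). The interaction was smallest in this class for *Mcm6*, 0.96, and largest for the helicase cofactor *Cdc45*, 2.80, and for *Mcm10*, 2.66. *Gins2*, a helicase cofactor with an interaction of 1.66, shares 67.3% of its exonic bases with *Gse1* on the opposite strand, and the strand setting of the counting is not given in the sources used here.

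At the fork and in nucleotide supply the response was less even. *Pcna* was at 48.5, 66.8, 60.9 and 75.8 CPM in iCre TNFα and at 32.995, 25.1, 32.3 and 33.8 CPM in LacZ TNFα, with 23.04, 21.7, 21.2 and 25.3 CPM in iCre CTRL and 27.8, 24.02, 26.6 and 27.4 CPM in LacZ CTRL. Its 4 iCre TNFα libraries were the highest of the 16, with a TNFα effect of 1.50 (SE 0.14, adjusted p = 0.000175) and an interaction of 1.26 (SE 0.18, adjusted p = 0.000236). Named pseudogene copies of *Pcna* exist in the annotation, to which reads could be divided. *Rrm2* was at 16.8, 37.9, 31.01 and 38.6 CPM in iCre TNFα and at 7.22, 3.70, 10.9 and 10.7 CPM in LacZ TNFα, against 4.65, 5.999, 7.08 and 6.15 CPM and 4.24, 4.11, 7.52 and 7.67 CPM in the CTRL groups of iCre and LacZ. Replicate 1 was the lowest of the iCre TNFα libraries and still above the other 12, and the interaction was 1.94 (SE 0.46, adjusted p = 0.00885). *Tk1* was at 22.4, 33.9, 30.7 and 29.5 CPM in iCre TNFα and 7.43, 3.53, 14.3 and 11.2 CPM in LacZ TNFα, and at 2.19, 1.10, 4.59 and 5.04 CPM and 3.57, 1.60, 8.09 and 9.65 CPM in iCre and LacZ CTRL. Its interaction was 2.52 (SE 0.75, adjusted p = 0.0304), which was not called after the GC correction (adjusted p = 0.0529). The large subunit of the reductase, *Rrm1*, rose with TNFα in iCre fibroblasts by 1.04 (SE 0.18, adjusted p = 0.00198), but its interaction of 0.26 (SE 0.36, adjusted p = 0.708) did not pass the test, nor did that of *Pola1*, the catalytic subunit of the priming polymerase, 0.51 (SE 0.29, adjusted p = 0.272), or of *Rfc3*, a clamp loader subunit, 0.54 (SE 0.18, adjusted p = 0.0588).

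Of the G1/S regulators, *Ccne1* was at 7.55, 14.5, 12.2 and 12.8 CPM in iCre TNFα and at 4.24, 3.98, 5.03 and 5.72 CPM in LacZ TNFα. It was at 4.61, 4.35, 5.36 and 4.80 CPM in iCre CTRL and at 3.71, 5.16, 6.69 and 5.93 CPM in LacZ CTRL, and the iCre TNFα libraries were above the other 12. The TNFα effect was 1.33 (SE 0.20, adjusted p = 0.00102) in iCre and −0.18 (SE 0.20, adjusted p = 0.588) in LacZ fibroblasts, where it was not called, with an interaction of 1.50 (SE 0.29, adjusted p = 0.00221). *E2f1* moved least of the class, from 30.4, 27.9, 29.8 and 31.2 CPM in iCre CTRL to 40.3, 45.4, 43.4 and 51.1 CPM in iCre TNFα. It was at 27.5, 24.9, 32.2 and 34.4 CPM in LacZ CTRL and 24.96, 28.3, 28.7 and 32.2 CPM in LacZ TNFα, and its interaction was 0.68 (SE 0.15, adjusted p = 0.00662). After the GC correction that was 0.42 (SE 0.16, adjusted p = 0.108) and was not called. *Ccne2* was at 1.40, 4.64, 2.73 and 3.53 CPM in iCre TNFα and at 1.29, 0.245, 1.46 and 1.59 CPM in LacZ TNFα, groups that overlapped, and its interaction of 1.58 (SE 0.79, adjusted p = 0.211) was not called.

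The largest TNFα effects of the 45 in iCre fibroblasts were those of the mitotic kinases *Aurkb*, 3.63 (SE 0.39, adjusted p = 0.000268), and *Plk1*, 3.51 (SE 0.43, adjusted p = 0.000441). *Plk1*, a kinase of mitotic entry and exit, was at 34.3, 55.9, 61.001 and 66.7 CPM in iCre TNFα and at 14.99, 4.51, 22.2 and 22.5 CPM in LacZ TNFα, with 3.11, 1.90, 6.06 and 8.48 CPM in iCre CTRL and 4.78, 2.35, 16.4 and 16.97 CPM in LacZ CTRL. Replicates 1 and 2 were below 3 and 4 in both CTRL groups, and all 4 iCre TNFα libraries were above the rest of the 16. *Cdk1* was at 44.3, 71.6, 65.9 and 79.2 CPM in iCre TNFα, at 18.1, 8.95, 28.7 and 25.4 CPM in LacZ TNFα, at 11.3, 10.9, 16.5 and 16.1 CPM in iCre CTRL and at 12.5, 11.5, 26.6 and 30.5 CPM in LacZ CTRL. The LacZ TNFα libraries of *Cdk1* overlapped those of LacZ CTRL, with an effect of 0.000468 (SE 0.40, adjusted p = 1), against 2.28 (SE 0.21, adjusted p = 0.000175) in iCre fibroblasts and an interaction of 2.27 (SE 0.50, adjusted p = 0.00534). *Foxm1*, the mitotic transcription factor, was at 47.3, 65.99, 69.1 and 75.5 CPM in iCre TNFα, 25.6, 12.2, 32.6 and 31.9 CPM in LacZ TNFα, 10.6, 10.7, 13.8 and 14.8 CPM in iCre CTRL and 11.7, 8.37, 18.8 and 23.1 CPM in LacZ CTRL. Its interaction was 1.67 (SE 0.44, adjusted p = 0.0153).

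Of the mitotic cyclins, *Ccnb1*, cyclin B1, was at 25.99, 37.8, 37.5 and 42.5 CPM in iCre TNFα, 12.2, 3.60, 18.7 and 17.5 CPM in LacZ TNFα, 3.53, 3.27, 5.32 and 7.93 CPM in iCre CTRL and 4.98, 2.57, 15.9 and 18.04 CPM in LacZ CTRL. Its interaction was 2.54 (SE 0.77, adjusted p = 0.0339), and *Ccnb1* too has a named pseudogene copy. *Ccna2*, the cyclin of S phase and early mitosis, was at 38.9, 54.2, 50.02 and 60.8 CPM in iCre TNFα, 15.7, 5.14, 29.2 and 28.6 CPM in LacZ TNFα, 3.96, 2.23, 7.72 and 11.7 CPM in iCre CTRL and 6.16, 3.73, 20.2 and 24.1 CPM in LacZ CTRL. It was the only mitotic regulator whose interaction was not called, at 2.47 (SE 0.85, adjusted p = 0.0618), and with the replicate block it was called, with an adjusted p = 0.00084.

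In the spindle checkpoint and among the chromosome genes, 5 of the 10 interactions were called. *Bub1* was at 10.9, 17.7, 15.9 and 23.5 CPM in iCre TNFα and at 6.34, 2.76, 11.99 and 10.8 CPM in LacZ TNFα, which overlapped, and at 1.80, 1.16, 4.31 and 4.14 CPM in iCre CTRL and 2.03, 1.78, 7.03 and 8.34 CPM in LacZ CTRL. Its TNFα effect in iCre fibroblasts was 2.60 (SE 0.41, adjusted p = 0.00143), and its interaction of 1.86 (SE 0.77, adjusted p = 0.125) was not called. *Top2a*, the topoisomerase that untangles chromosomes, was at 95.3, 173, 144 and 169.8 CPM in iCre TNFα, 46.2, 22.2, 91.4 and 81.5 CPM in LacZ TNFα, 15.4, 19.4, 28.3 and 36.4 CPM in iCre CTRL and 17.7, 16.8, 57.8 and 56.4 CPM in LacZ CTRL. *Mki67*, the proliferation marker Ki-67, was at 137, 209.8, 173 and 171 CPM in iCre TNFα, 52.02, 18.2, 96.6 and 84.2 CPM in LacZ TNFα, 13.97, 9.06, 24.9 and 36.8 CPM in iCre CTRL and 18.5, 13.1, 50.6 and 65.6 CPM in LacZ CTRL. Replicate 2 was the lowest LacZ TNFα library for both genes, and their interactions were 1.88 (SE 0.65, adjusted p = 0.0633) and 2.28 (SE 0.77, adjusted p = 0.054), neither of them called. *Birc5* was at 18.6, 31.6, 28.7 and 31.8 CPM in iCre TNFα, 7.63, 3.08, 12.6 and 11.4 CPM in LacZ TNFα, 1.73, 1.38, 3.41 and 4.38 CPM in iCre CTRL and 2.39, 2.39, 8.93 and 10.8 CPM in LacZ CTRL, with an interaction of 2.86 (SE 0.74, adjusted p = 0.0142). With the replicate block, 42 of the 45 interactions were called (13.2% of all genes higher), among them those of *Bub1* (adjusted p = 0.00306), *Top2a* (adjusted p = 0.00211) and *Mki67* (adjusted p = 0.00139).

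**Figure D3:**
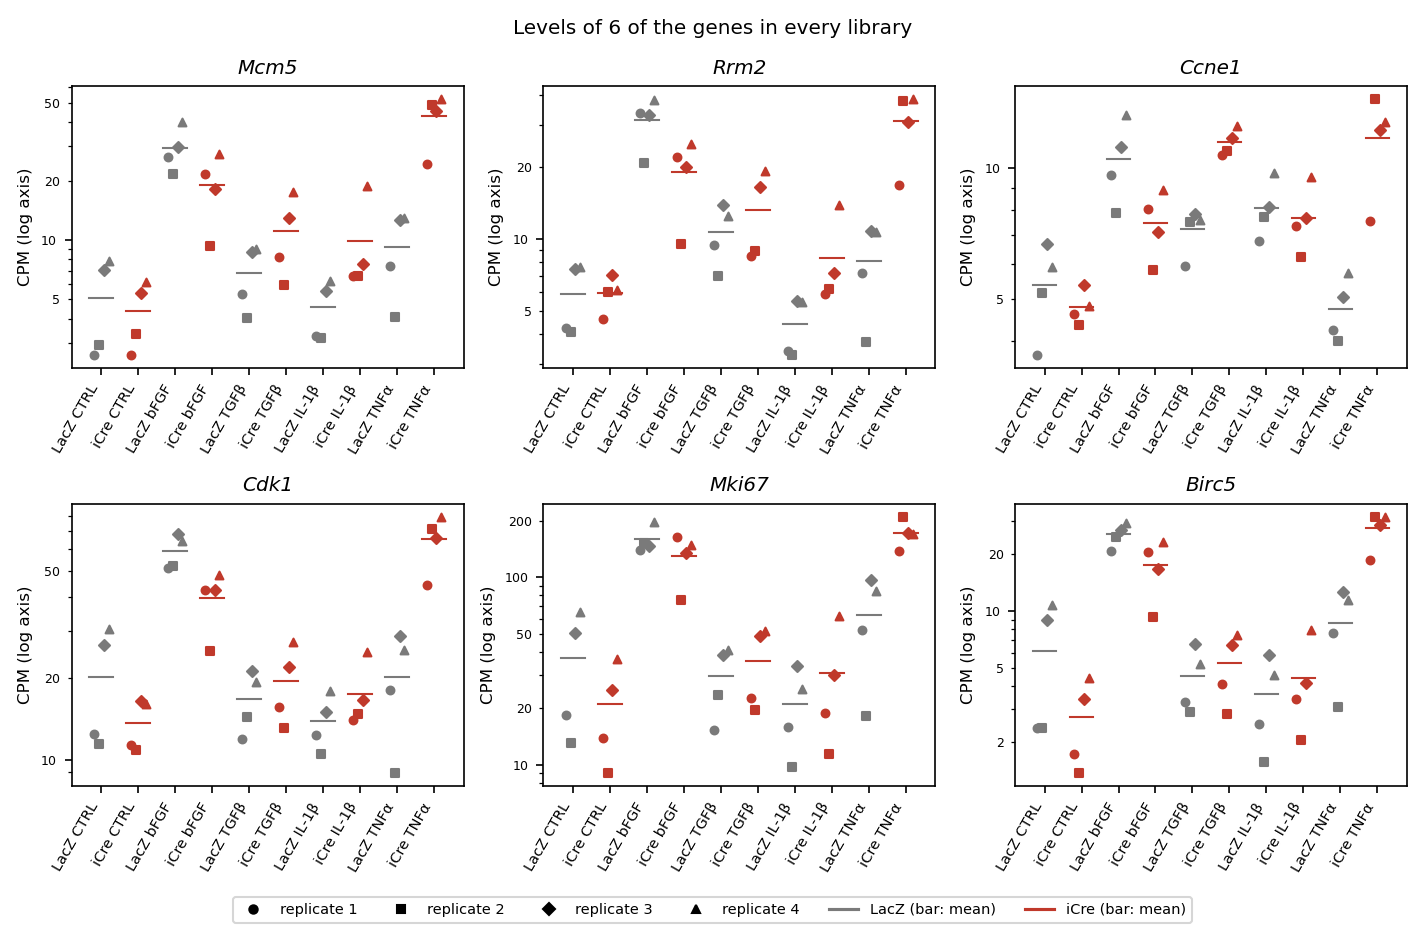
The panels show CPM (vertical log axis) of 6 genes in every library of the 10 groups, LacZ in grey and iCre in red, with a marker shape for each replicate number and a bar at the group mean. iCre TNFα and both bFGF groups hold the highest means, except for *Ccne1*, where iCre TGFβ is above iCre bFGF. LacZ TNFα lies below iCre TNFα in each panel. Against LacZ CTRL it is higher in every same-numbered pair for *Mcm5*, *Mki67* and *Birc5*, but not for *Rrm2*, *Ccne1* and *Cdk1*.

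With TNFα, iCre libraries were compared directly with LacZ libraries. 40 of 45 genes were higher in iCre and 0 lower, against 14.8% of all genes that were higher, and 41 of 45 had all 4 iCre libraries above all 4 LacZ libraries, against 15.1% of all genes. The median log2 fold change was 1.46, with 0 over all genes. The largest was that of *Cdt1*, the licensing factor that works with CDC6, at 2.51 (SE 0.33, adjusted p = 0.000649), and *Cdc6* was at 2.37 (SE 0.41, adjusted p = 0.00216). The 5 genes not called were *Pola1*, *Rrm1*, *Ccne2*, *Bub1* and *Ttk*, with log2 fold changes of 0.47, 0.13, 1.44, 1.11 and 1.54. The counts without replicates 1, 2, 3 and 4 were 32, 40, 31 and 28, where 13.8%, 12.2%, 6.38% and 7.89% of all genes were higher. The iCre TNFα libraries also had the GC trend given above, and with the GC correction 44 genes were higher (10.3% of all genes). Fibroblast markers summed to 15351 to 23387 CPM in iCre TNFα and to 25795 to 34599 CPM in LacZ TNFα, without overlap. Endothelial markers summed to 5.09 to 13.96 CPM in iCre TNFα and to 2.17 to 11.5 CPM in LacZ TNFα, and mural markers to 272 to 1075 and 61.3 to 355 CPM. Their part in the result was not tested.

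bFGF raised the genes with either virus. In LacZ fibroblasts 42 of 45 were higher than in CTRL and 0 lower (7% of all genes were higher), with log2 fold changes of 0.42 to 3.03 and a median of 1.71 against −0.03 over all genes. In iCre fibroblasts 31 were higher and 0 lower (1.79% of all genes higher), with a range of 0.32 to 2.78 and a median of 1.77 against 0. With the replicate block 45 were higher in iCre (9.28% of all genes), and each of the 45 was above CTRL in all 4 same-numbered pairs with either virus, against 15.9% of all genes in iCre and 18.5% in LacZ. The count in iCre was 44 without replicate 2 (7.07% of all genes) and 0 without replicate 1, 3 or 4, where edgeR called 0 of all genes and between 2107 and 2690 of all had an unadjusted p of at most 0.05. In LacZ it was 26, 14 and 21 without replicates 1, 3 and 4 (2.99%, 0.881% and 1.69% of all genes). The interaction of bFGF with the virus was called by edgeR for 0 of the 45, with 0% of all genes called, and 2 of the 45 had an unadjusted p of at most 0.05. DESeq2 called 0 as well. The log2 values of the interaction ran from −1.18 to 0.66, with a median of −0.05. Fibroblast markers summed to 22846 to 31191 CPM in LacZ bFGF and to 30434 to 47665 CPM in LacZ CTRL. In iCre fibroblasts these sums were 17180 to 25350 CPM with bFGF and 20809 to 37001 CPM in CTRL. The part of the markers in the result was not tested.

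**Figure D4:**
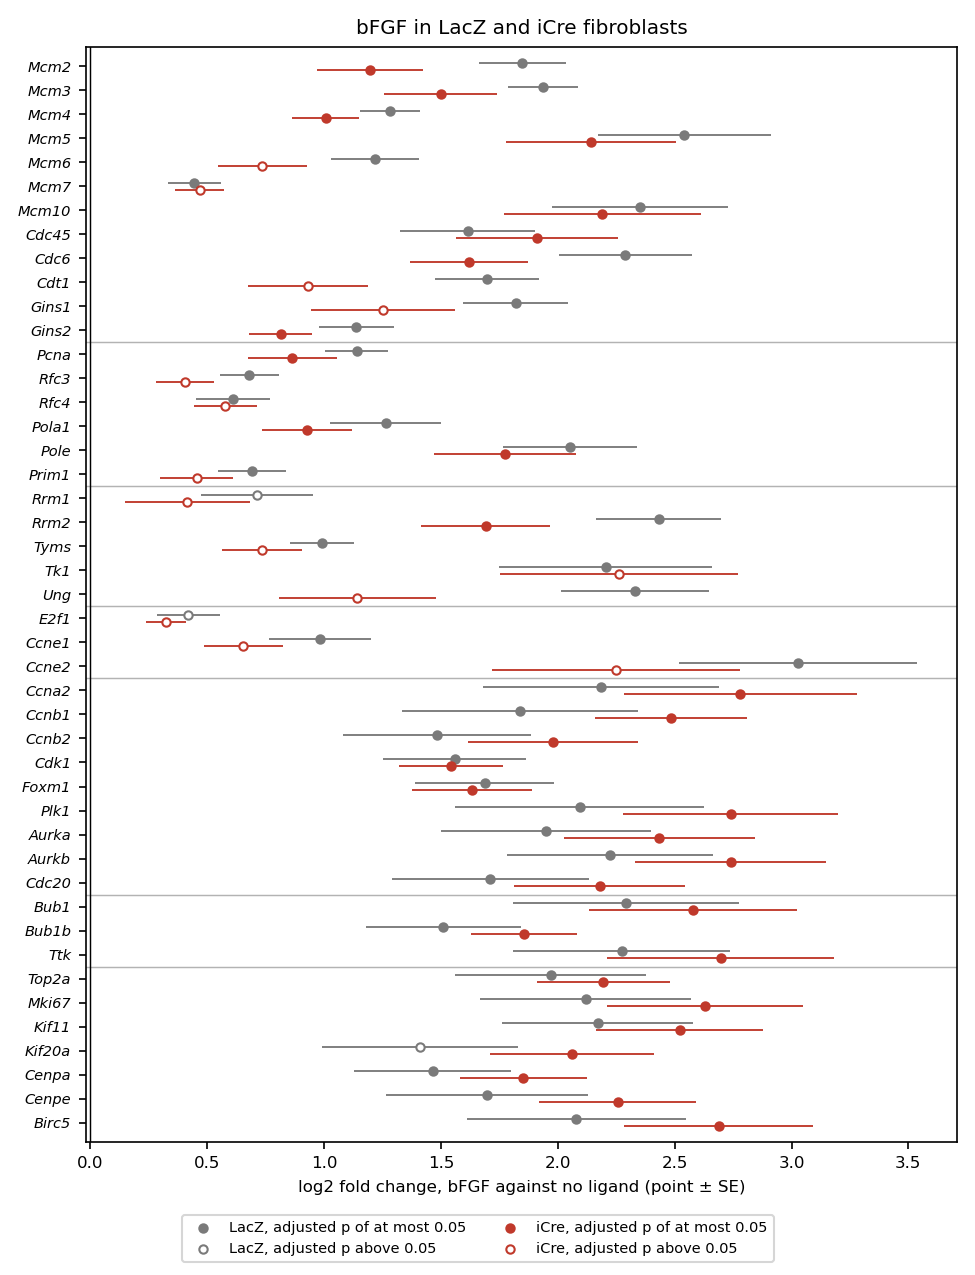
The plot gives the log2 fold change of bFGF against no ligand (horizontal axis, point ± SE) for each of the 45 genes in LacZ (grey) and iCre (red) fibroblasts, filled where the adjusted p was at most 0.05. All 90 points are to the right of 0, and the grey and red points lie farthest apart for *Ung*.

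*Mcm5* was at 26.3, 21.7, 29.9 and 39.7 CPM in LacZ bFGF and at 21.7, 9.34, 18.2 and 27.5 CPM in iCre bFGF, with bFGF effects of 2.54 (SE 0.37, adjusted p = 0.00336) and 2.14 (SE 0.36, adjusted p = 0.0225). *Cdc6* was at 5.32, 6.54, 6.85 and 10.3 CPM in LacZ bFGF and 4.80, 2.95, 3.999 and 4.68 CPM in iCre bFGF. *Pcna* was at 65.4, 42.6, 58.5 and 63.9 and 45.2, 25.5, 44.4 and 49.7 CPM in the same groups. Replicate 2 of iCre bFGF was the lowest of its group for all 3 genes. *Rrm2* was at 33.6, 20.7, 33.1 and 38.2 CPM in LacZ bFGF and 22.1, 9.58, 19.995 and 25.003 CPM in iCre bFGF, with effects of 2.43 (SE 0.27, adjusted p = 0.000971) and 1.69 (SE 0.28, adjusted p = 0.0213). *Tk1* was at 26.8, 20.7, 30.4 and 26.6 and 20.3, 5.76, 15.7 and 19.9 CPM. *Ung*, the uracil-DNA glycosylase of base excision repair, rose in LacZ fibroblasts by 2.33 (SE 0.32, adjusted p = 0.00238). In iCre fibroblasts its effect of 1.14 (SE 0.34, adjusted p = 0.119) was not called without the block and was called with it (adjusted p = 0.0138), and the interaction was −1.18 (SE 0.44, adjusted p = 1).

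Of the E cyclins, *Ccne2* had the largest bFGF effect of the 45 in LacZ fibroblasts, 3.03 (SE 0.51, adjusted p = 0.00601), from 0.714, 0.329, 1.49 and 1.39 CPM in CTRL to 6.27, 3.67, 8.98 and 12.9 CPM, and in iCre bFGF it was at 5.98, 1.20, 4.03 and 5.70 CPM. *Ccne1* was at 9.64, 7.90, 11.2 and 13.2 CPM in LacZ bFGF, with an effect of 0.98 (SE 0.22, adjusted p = 0.0179), and at 8.07, 5.81, 7.14 and 8.89 CPM in iCre bFGF. The effects in iCre fibroblasts, 2.25 (SE 0.53, adjusted p = 0.06) for *Ccne2* and 0.65 (SE 0.17, adjusted p = 0.0797) for *Ccne1*, were called with the replicate block (adjusted p = 1.43e-06 and 0.00414). *Ccne2* shares 17.4% of its exonic bases with *Ints8* on the opposite strand. *E2f1* was at 38.8, 32.6, 39.9 and 45.96 CPM in LacZ bFGF and 38.01, 34.5, 36.7 and 39.01 CPM in iCre bFGF, with effects of 0.42 (SE 0.14, adjusted p = 0.0764) and 0.32 (SE 0.08, adjusted p = 0.0831) that were not called. With the block both were called (adjusted p = 0.000949 and 0.00863), and with the GC correction the one in iCre fibroblasts (adjusted p = 0.0433).

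All 9 mitotic regulators were called higher with bFGF with either virus. *Plk1* was at 35.97, 37.3, 43.1 and 54.7 CPM in LacZ bFGF and at 36.7, 16.4, 32.9 and 43.7 CPM in iCre bFGF, and *Cdk1* at 51.1, 51.96, 68.5 and 64.6 and 42.4, 25.2, 42.6 and 48.4 CPM. *Foxm1* was at 46.01, 38.9, 46.96 and 65.4 and 43.7, 20.2, 39.2 and 50.2 CPM in the same order. The effects on *Plk1* were 2.09 (SE 0.53, adjusted p = 0.0314) in LacZ and 2.74 (SE 0.46, adjusted p = 0.0225) in iCre fibroblasts, all libraries being above those of the matching CTRL. *Ccnb1* was at 32.99, 37.1, 36.9 and 39.8 and 31.3, 16.9, 26.9 and 36.3 CPM, and *Ccna2* at 55.98, 53.7, 61.1 and 72.5 and 50.6, 20.5, 44.7 and 59.3 CPM. The checkpoint kinase *Bub1* was at 15.6, 22.97, 24.03 and 30.1 CPM in LacZ bFGF and 17.5, 8.83, 17.1 and 24.5 CPM in iCre bFGF. In the same order *Top2a* was at 117, 145, 139 and 176 and 113, 77.8, 110.1 and 150.3 CPM, *Mki67* at 139, 152, 146 and 198 and 163, 75.4, 134 and 148 CPM and *Birc5* at 20.9, 24.9, 26.9 and 29.5 and 20.5, 9.34, 16.8 and 23.2 CPM. Across these genes replicate 2 of iCre bFGF was below the other 3, and it was above iCre CTRL replicate 2 for each of the 45.

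The 2 iCre groups with high levels were also compared with each other. In iCre TNFα 6 of 45 genes were higher than in iCre bFGF and 0 lower, against 6.80% of all genes that were higher, with a median log2 fold change of 0.65 against −0.04. The 6 were the helicase genes *Mcm2*, *Mcm3*, *Mcm5* and *Mcm7*, its cofactor *Gins2*, and *Tyms*. *Mcm5* differed by 1.16 (SE 0.32, adjusted p = 0.0427) and *Mcm3* by 1.03 (SE 0.28, adjusted p = 0.0369). Mitotic regulators and chromosome genes had medians of 0.74 and 0.41, with none called. With the replicate block 27 were higher, against 13.4% of all genes, 10 of them licensing and helicase genes, 7 mitotic regulators and 2 chromosome genes. Without replicate 1 the count was 11 (5.07% of all genes), without replicate 3 or 4 it was 0 (0.127% and 1.09%), and DESeq2 gave 19 (10.0%).

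The effect of the iCre virus was examined without ligand and with bFGF. In CTRL libraries edgeR called 0 of 45 genes (0.0754% of all genes were called), with 4 of the 45 at an unadjusted p of at most 0.05, and DESeq2 called 0. The median log2 fold change, iCre against LacZ, was −0.26, against −0.03 over all genes, and −0.94 among mitotic regulators against −0.17 among licensing and helicase genes. With the replicate block 2 were higher and 20 lower (14.5% of all genes were called). The higher pair were *Mcm6* and *Cdt1*, and the 20 lower ones were *Cdc45*, *Tk1* and 18 of the 19 genes of the 3 mitosis classes, all but *Foxm1*. *Birc5* was lowest, at −1.18 (SE 0.56, adjusted p = 0.384) without and −1.05 (SE 0.17, adjusted p = 0.000427) with the block, from the CTRL values given above. In 21 of 45 genes each iCre CTRL library was below the LacZ CTRL library of the same number, against 15.5% of all genes. *Cdt1* went the other way, with 3.21, 7.71, 4.77 and 5.01 CPM in iCre CTRL and 1.94, 4.13, 3.14 and 3.46 CPM in LacZ CTRL, a difference of 0.68 (SE 0.14, adjusted p = 0.00332) with the block.

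With bFGF, iCre libraries were lower than LacZ libraries in the point estimate of all 45 genes, with a median of −0.40 against 0.00449 over all genes, but edgeR called 0 of the 45 and 0% of all genes. At an unadjusted p of at most 0.05 there were 10 of the 45, and DESeq2 called 1 (1.91% of all genes). With the replicate block 33 were lower and 0 higher, against 7.22% of all genes that were lower, and 30 of 45 were lower in all 4 same-numbered pairs, against 13.8% of all genes. *Cdc6* differed by −0.82 (SE 0.24, adjusted p = 0.363) without and −0.81 (SE 0.17, adjusted p = 0.00178) with the block, and *Rrm2* by −0.76 (SE 0.10, adjusted p = 8.93e-06) with it. In every pair the iCre library of *Cdc6* was the lower one, and the pair of replicate 1 lay closest together.

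With TGFβ some of the 45 rose and others fell. In LacZ fibroblasts 6 were higher and 2 lower than in CTRL, where 36.9% of all genes were called, with a median of −0.11 against −0.17. In iCre fibroblasts 14 were higher and 2 lower, a share near the 37.4% of all genes called, with a median of 0.60 against −0.11. *Tyms* rose with either virus, from 11.2, 10.1, 13.5 and 13.1 to 46.6, 20.1, 38.97 and 35.1 CPM in LacZ and from 10.96, 11.02, 11.9 and 12.5 to 42.1, 21.4, 45.9 and 39.9 CPM in iCre fibroblasts, with effects of 1.57 (SE 0.23, adjusted p = 0.000439) and 1.71 (SE 0.21, adjusted p = 9.50e-05). Its TGFβ libraries were above all CTRL libraries, with replicate 2 the lowest in both groups, and a named pseudogene copy of *Tyms* is annotated. *Mcm6* rose too, from 28.7, 37.4, 31.1 and 34.2 to 53.1, 70.9, 72.2 and 63.7 CPM in LacZ and from 30.8, 49.2, 44.2 and 42.2 to 66.9, 86.4, 103 and 132 CPM in iCre fibroblasts. Its effects were 1.001 (SE 0.11, adjusted p = 7.87e-05) and 1.24 (SE 0.20, adjusted p = 0.000661), without overlap with CTRL.

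*Prim1* fell with TGFβ, from 7.88, 8.52, 7.01 and 6.57 to 2.51, 2.42, 3.31 and 2.95 CPM in LacZ and from 8.21, 7.10, 7.90 and 6.64 to 2.98, 3.07, 3.48 and 4.43 CPM in iCre fibroblasts, with log2 fold changes of −1.40 (SE 0.17, adjusted p = 9.69e-05) and −1.08 (SE 0.18, adjusted p = 0.000734). In iCre fibroblasts *Pola1* fell from 10.4, 9.95, 9.95 and 10.5 to 5.36, 3.26, 6.85 and 7.52 CPM, a log2 fold change of −0.80 (SE 0.23, adjusted p = 0.0177). The falls were smaller with the GC correction. With it and the block *Prim1* was at −0.41 (SE 0.17, adjusted p = 0.0696) and *Pola1* at 0.01 (SE 0.18, adjusted p = 1) in iCre fibroblasts, and *Prim1* at −0.95 (SE 0.16, adjusted p = 0.000151) in LacZ fibroblasts. In LacZ fibroblasts *Mcm7* fell from 28.6, 27.8, 33.7 and 33.03 to 16.3, 15.1, 21.7 and 20.7 CPM, with −0.72 (SE 0.14, adjusted p = 0.0019), or with −0.26 (SE 0.09, adjusted p = 0.0334) after the GC correction and the block.

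The counts with TGFβ moved with the fit. With the block 25 were higher and 4 lower in iCre fibroblasts (41.5% of all genes called) and 10 and 8 in LacZ fibroblasts (42.0%). With the GC correction and the block the counts were 39 and 0 in iCre (44.5%) and 22 and 3 in LacZ fibroblasts (46.0%). The interaction of TGFβ with the virus was called by edgeR for 0 of 45 (4.51% of all genes called), with 5 at an unadjusted p of at most 0.05 and 1 called by DESeq2 (8.68% of all genes), and with the block for 10, all higher in iCre (2.36% of all genes higher). Fewer were called with the GC correction added to the block, as listed at the end. *Ccne1* was the single gene of the 45 called between viruses with TGFβ, a share near the 2.51% of all genes that were higher. It was at 10.7, 10.95, 11.8 and 12.5 CPM in iCre and 5.93, 7.53, 7.85 and 7.61 CPM in LacZ TGFβ, a difference of 0.64 (SE 0.14, adjusted p = 0.0183) without overlap. After the GC correction it was 0.47 (SE 0.14, adjusted p = 0.222) and was not called, and with the correction and the block it was called (adjusted p = 0.0193). With the block 11 genes were higher and 3 lower (20.8% of all genes called). That count too was smaller with the GC correction added to the block. *Mcm5* was at 5.33, 4.02, 8.76 and 9.02 CPM in LacZ TGFβ and 8.17, 5.92, 12.99 and 17.6 CPM in iCre TGFβ, and *Plk1* at 5.90, 8.56, 15.2 and 14.02 and 8.20, 6.81, 16.3 and 19.3 CPM.

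With IL-1β the median of the 45 was below 0 in LacZ and above 0 in iCre fibroblasts. In LacZ fibroblasts 1 was higher and 4 were lower than in CTRL (20.7% of all genes called), with a median of −0.53 against −0.10. In iCre fibroblasts 6 were higher and 2 lower, a share near the 16.3% of all genes called, with a median of 0.37 against 0. The 4 lower ones in LacZ fibroblasts were *Mcm6*, *Mcm7*, *Prim1* and *Pola1*. *Mcm7* was at 14.9, 17.2, 19.1 and 20.3 CPM in LacZ IL-1β, below all LacZ CTRL libraries, and at 26.3, 27.1, 26.4 and 38.95 CPM in iCre IL-1β, with effects of −0.77 (SE 0.12, adjusted p = 0.00144) and 0.12 (SE 0.13, adjusted p = 0.612). The interaction of IL-1β with the virus was called for 2 of 45, a share near the 2.76% of all genes that were higher. The pair were *Mcm7*, with 0.88 (SE 0.18, adjusted p = 0.00641), and *Gins2*, with 0.97 (SE 0.25, adjusted p = 0.0245). *Gins2* was at 6.32, 4.21, 4.63 and 5.71 CPM in LacZ IL-1β and 6.60, 7.91, 8.65 and 11.3 CPM in iCre IL-1β, groups that did not overlap. With the GC correction neither was called, with an adjusted p = 0.102 for *Mcm7* and 0.23 for *Gins2*.

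With the block the counts with IL-1β were 2 higher and 25 lower in LacZ (33.5% of all genes called) and 27 higher and 2 lower in iCre fibroblasts (33.8%). The interaction was called for 27, all higher in iCre (7.90% of all genes higher). Fewer interactions were called with the GC correction added to the block, as listed at the end. All 9 mitotic regulators and all 7 chromosome genes were among the 25 lower ones in LacZ fibroblasts, where *Birc5* was at 2.52, 1.57, 5.84 and 4.56 CPM and had an effect of −0.63 (SE 0.16, adjusted p = 0.00249) with the block. With the GC correction and the block the counts were 5 and 17 in LacZ (37.4%) and 33 and 0 in iCre fibroblasts (31.5%). Of the falls called in iCre fibroblasts, *Prim1* was at −0.56 (SE 0.14, adjusted p = 0.0237) and *Pola1* at −0.60 (SE 0.18, adjusted p = 0.0486), and with the GC correction and the block at −0.27 (SE 0.13, adjusted p = 0.0867) and −0.16 (SE 0.11, adjusted p = 0.351), neither of them called. Between viruses with IL-1β, 8 genes were higher in iCre and 0 lower, against 7.14% of all genes that were higher, and 6 of the 8 were licensing and helicase genes. *Mcm6* was at 15.2, 27.2, 19.97 and 24.8 CPM in LacZ IL-1β and 35.9, 45.5, 41.8 and 62.4 CPM in iCre IL-1β, a difference of 1.08 (SE 0.20, adjusted p = 0.00489), and *Cdt1* differed by 1.29 (SE 0.23, adjusted p = 0.00394). After the GC correction 4 were higher (1.98% of all genes), *Mcm2*, *Mcm6*, *Cdt1* and *Rfc3*, and *Cdt1* differed by 0.91 (SE 0.24, adjusted p = 0.0429). With the block 19 were higher and 1 lower (29.5% of all genes called). *Plk1* was at 5.56, 1.68, 9.93 and 10.5 and 5.53, 2.71, 7.24 and 13.6 CPM in LacZ and iCre IL-1β, ranges that overlapped.

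Over the 16 libraries with TGFβ or IL-1β the remaining genes followed in full stayed below the lowest LacZ bFGF library, except for *Pcna*, *E2f1* and *Ccne1*. *Ccne1* was at 5.93 to 12.5 CPM, against 7.90 to 13.2 CPM in LacZ bFGF. *Cdc6* was at 0.745 to 3.42 CPM, *Rrm2* at 3.28 to 19.3 CPM and *Tk1* at 1.25 to 10.8 CPM. *Pcna* was at 23.6 to 44.2 CPM, which overlapped the LacZ bFGF range of 42.6 to 65.4 CPM, and *E2f1* at 25.3 to 39.7 CPM, against 32.6 to 45.96 CPM. *Cdk1* was at 10.5 to 27.2 CPM, *Foxm1* at 8.66 to 26.3 CPM and *Ccnb1* at 2.18 to 13.3 CPM. *Ccna2* was at 3.18 to 21.2 CPM, and 12.5% of its exonic bases overlap *Exosc9* on the opposite strand. *Bub1* was at 1.17 to 9.51 CPM, *Top2a* at 17.4 to 50.9 CPM, *Mki67* at 9.77 to 62.4 CPM and *Birc5* at 1.57 to 7.97 CPM.

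**Figure D5:**
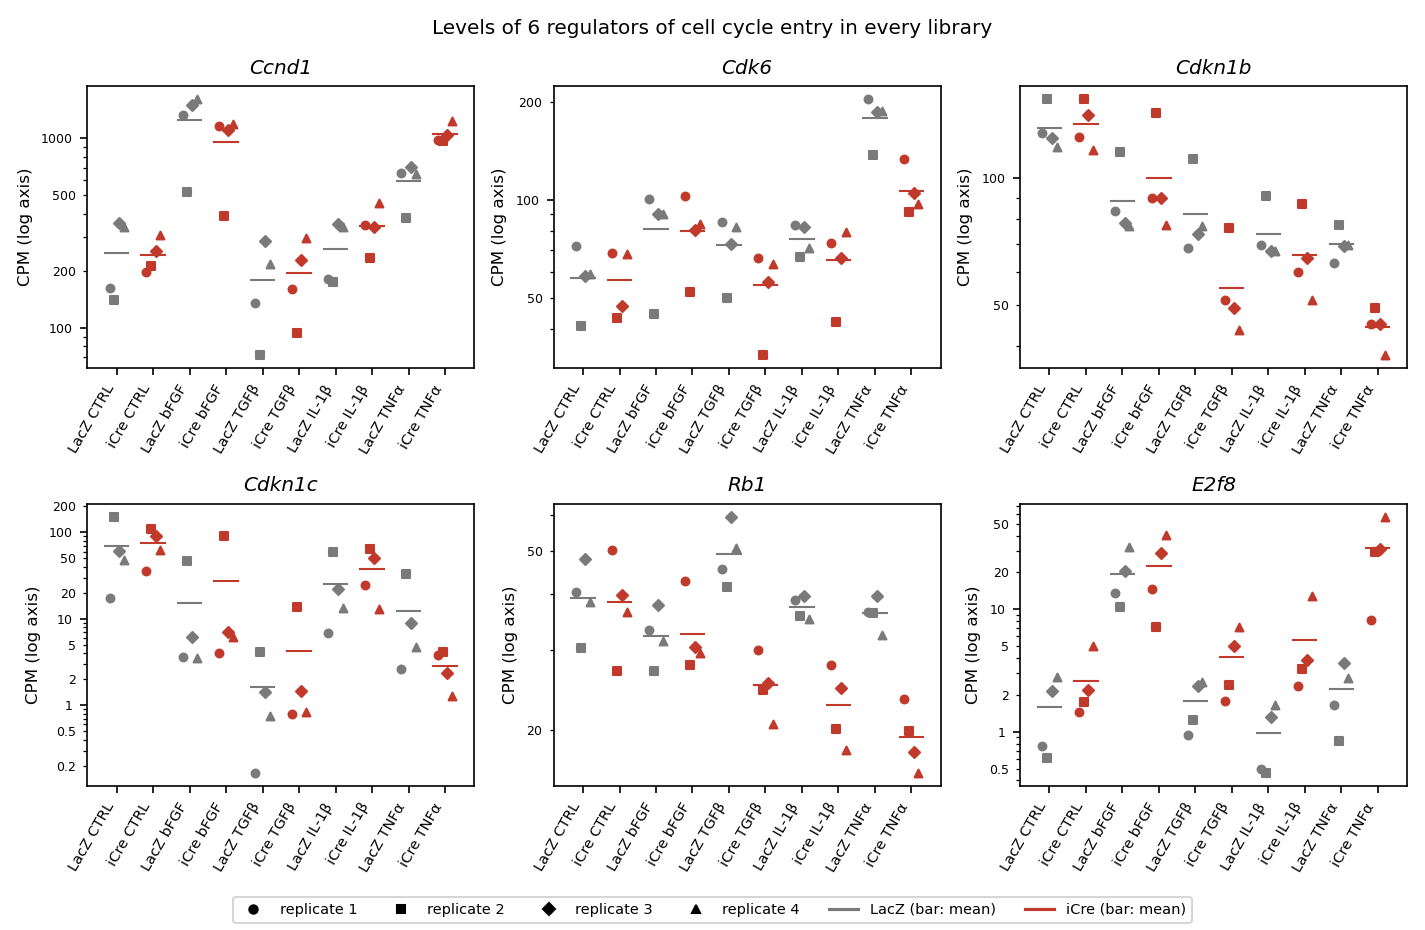
The panels show CPM (vertical log axis) in every library of the 10 groups for *Ccnd1*, *Cdk6*, *Cdkn1b*, *Cdkn1c*, *Rb1* and *E2f8*, LacZ in grey and iCre in red, with a marker shape for each replicate number and a bar at the group mean. *Ccnd1* is high with bFGF and TNFα with either virus, *Cdkn1b* is lowest in iCre TNFα, and *Cdkn1c* is low in both TGFβ groups and in iCre TNFα.

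Genes upstream of the 45 were read from lists chosen by function. Of 6 G1 cyclins and kinases, 3 rose with TNFα in iCre and 2 in LacZ fibroblasts. Of all genes 27% were called in either direction in iCre and 21.3% in LacZ fibroblasts, against which the counts with TNFα of this and the next lists are to be read. *Ccnd1*, cyclin D1, was at 162, 141, 356 and 339 CPM in LacZ CTRL and 197, 211, 255 and 311 CPM in iCre CTRL. It was at 656, 381, 707 and 649.8 CPM in LacZ TNFα and 979, 967, 1042 and 1226 CPM in iCre TNFα, and at 1329, 523, 1497 and 1614 CPM and 1158, 391, 1106 and 1183 CPM in LacZ and iCre bFGF. It rose with TNFα with either virus, by 1.26 (SE 0.33, adjusted p = 0.0215) in LacZ and 2.14 (SE 0.16, adjusted p = 0.000124) in iCre fibroblasts, with an interaction of 0.87 (SE 0.39, adjusted p = 0.158) that was not called without the block and had an adjusted p = 0.0231 with it. *Cdk6*, a partner of D cyclins, was higher in LacZ TNFα, at 204, 137, 186 and 186 CPM, than in iCre TNFα, at 133, 91.3, 105 and 97.1 CPM, with a log2 difference, iCre against LacZ, of −0.72 (SE 0.15, adjusted p = 0.00637). Its TNFα effects were 1.63 (SE 0.18, adjusted p = 0.000251) in LacZ and 0.94 (SE 0.18, adjusted p = 0.00383) in iCre fibroblasts, and their difference of −0.70 (SE 0.27, adjusted p = 0.0991) was called with the block (adjusted p = 0.00113). *Cdk4*, the other partner, was called in iCre TNFα only, with an interaction of 0.70 (SE 0.15, adjusted p = 0.00449).

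Of 7 CDK inhibitors, 1 was higher and 3 lower with TNFα in iCre, and 0 and 2 in LacZ fibroblasts, the latter near the 21.3% of all genes. *Cdkn1b*, p27, was at 45.1, 49.2, 45.1 and 38.1 CPM in iCre TNFα and 63.1, 77.6, 69.2 and 69.5 CPM in LacZ TNFα, and at 125, 154, 141 and 117 CPM and 129, 155, 125 and 119 CPM in iCre and LacZ CTRL. All iCre TNFα libraries were below all LacZ TNFα libraries, and those below CTRL, with effects of −1.56 (SE 0.11, adjusted p = 0.000102) and −0.91 (SE 0.09, adjusted p = 0.000169). The interaction of −0.66 (SE 0.15, adjusted p = 0.00534) was also called with the GC correction and the block, at −0.44 (SE 0.10, adjusted p = 0.00581). *Cdkn1c*, p57, was at 3.79, 4.09, 2.36 and 1.30 CPM in iCre TNFα, 2.61, 32.7, 8.98 and 4.70 CPM in LacZ TNFα, 36.1, 110, 90.8 and 62.7 CPM in iCre CTRL and 17.4, 152, 61.004 and 47.97 CPM in LacZ CTRL. Replicate 2 was the highest library in each of these groups, and in iCre bFGF *Cdkn1c* was at 4.004, 91.4, 7.02 and 6.24 CPM. It fell with TNFα in iCre fibroblasts, with an effect of −4.65 (SE 0.44, adjusted p = 0.000186). In LacZ fibroblasts each TNFα library was below the CTRL library of the same number, with an effect of −2.496 (SE 0.82, adjusted p = 0.0567) that was called with the block (adjusted p = 8.42e-12), and the interaction was −2.16 (SE 0.99, adjusted p = 0.167), or −1.94 (SE 0.58, adjusted p = 0.0207) with the block. With TGFβ it fell with either virus too, to 0.166, 4.12, 1.44 and 0.758 CPM in LacZ TGFβ and 0.794, 13.7, 1.46 and 0.830 CPM in iCre TGFβ. *Cdkn2c*, p18, and *Cdkn2d*, p19 of the INK4 family, were higher in iCre TNFα than in LacZ TNFα, by 0.65 (SE 0.17, adjusted p = 0.0159) and 0.50 (SE 0.13, adjusted p = 0.0181).

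Of the 16 pocket protein, E2F and MuvB partner genes tested, 9 rose and 2 fell with TNFα in iCre, and 4 rose and 1 fell in LacZ fibroblasts, against 27% and 21.3% of all genes called, and *Lin54* was not analysed here. *E2f8*, a repressor that is itself an E2F target, was at 8.16, 29.2, 31.05 and 56.97 CPM in iCre TNFα, 1.66, 0.839, 3.62 and 2.77 CPM in LacZ TNFα and 13.5, 10.5, 20.6 and 32.3 CPM in LacZ bFGF, with an interaction of 3.11 (SE 0.87, adjusted p = 0.0214). *Mybl2*, B-MYB, and *E2f2*, an activating factor, had interactions of 2.44 (SE 0.53, adjusted p = 0.00464) and 2.65 (SE 0.56, adjusted p = 0.00374). *Rb1* was lower in iCre than in LacZ libraries with TGFβ, IL-1β and TNFα, with log2 differences of −0.997 (SE 0.14, adjusted p = 0.00183), −0.73 (SE 0.14, adjusted p = 0.00527) and −0.89 (SE 0.13, adjusted p = 0.000979). Those are the groups with the GC trend, and with the GC correction the differences were −0.54 (SE 0.15, adjusted p = 0.164), −0.42 (SE 0.17, adjusted p = 0.171) and −0.49 (SE 0.13, adjusted p = 0.0216), of which the last was called. With TNFα *Rb1* was at 23.4, 19.9, 17.8 and 16.1 CPM in iCre and 36.6, 36.4, 39.7 and 32.4 CPM in LacZ libraries, which did not overlap.

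Of the 6 origin recognition genes, *Orc1*, the subunit under E2F control, rose with TNFα in iCre fibroblasts by 2.75 (SE 0.33, adjusted p = 0.000412), and *Orc4* fell, with −1.29 (SE 0.12, adjusted p = 0.000169). *Orc4* was at 13.4, 12.5, 10.5 and 11.4 CPM in iCre TNFα and 36.1, 32.2, 33.6 and 36.3 CPM in LacZ TNFα. It was lower in iCre with TGFβ and IL-1β as well, with −1.55 (SE 0.11, adjusted p = 9.08e-05) and −1.54 (SE 0.10, adjusted p = 3.10e-05). With the GC correction the differences were −0.70 (SE 0.13, adjusted p = 0.0398), −0.83 (SE 0.13, adjusted p = 0.00335) and, with TNFα, −0.69 (SE 0.11, adjusted p = 0.00192). Of 19 other replication genes, 16 rose with TNFα in iCre and 0 in LacZ fibroblasts, where 2 fell, and the interaction was higher for 17. Of 24 other mitosis genes, 24 rose with TNFα in iCre fibroblasts with a median of 2.55, and 0 rose and 1 fell in LacZ fibroblasts with a median of 0.41, or 19 and 1 with the block. The interaction was higher for 15 of the 24 (8.38% of all genes), and for 24 with the block (13.2%). With bFGF 21 of the 24 rose in LacZ and 23 in iCre fibroblasts, and 16 and 7 of the 19, against 7% and 1.79% of all genes. The comparisons with ligand within a virus share that virus's CTRL libraries, and those between viruses share the ligand libraries, so their values are not independent of each other.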

How the data were processed

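Polyadenylated RNA of 40 libraries of cultured mouse cardiac fibroblasts, 4 per group, was sequenced. The authors deposited 1 table of raw read counts per gene, made with HTSeq 0.10.0 on GRCm38 (mm10) after FastQC 0.10.1, per the submitters' processing notes, from reads aligned with STAR, per the study's methods; the strand setting of the counting is not given in the sources used here, and the labels and the methods name different library kits. The table had 55414 rows of gene identifiers, of which 52081 were paired with a symbol in the GENCODE M21 annotation (99.6% of counts), and 22066 rows were 0 in every library. Samples were grouped by their titles.

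Genes with fewer than 10 counts over the 40 libraries were left out, which kept 25210. Counts were scaled by TMM and tested with edgeR 4.0.16 (quasi-likelihood, R 4.3.3) on the libraries of each comparison (8, or 16 for an interaction, or all 40 for a group against the mean of the other 8 groups), with Benjamini-Hochberg adjustment over all genes tested and a threshold of 0.05. Fold changes are log2, and "called" means past that threshold. SE is a standard error derived from the test, the log2 fold change without its sign divided by the square root of the F statistic. Levels are CPM on TMM-scaled library sizes. The depth of 25360947 to 66160732 counted reads per library sets the counting error, and the printed spread between libraries includes it.

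Alternatives were RLE size factors, DESeq2 1.42.0, filterByExpr, no filter, each replicate left out, a minimum log2 change of 1, all 40 libraries in a single fit, a GC correction (an offset from a spline with 5 degrees of freedom per library over 24970 genes with a GC value), the replicate number as a block, and both of the last. The scripts were tested on simulated data.

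Same-numbered libraries of different groups deviated from their group means together, with a mean correlation of 0.573 over 180 pairs and 10774 genes, against −0.158 over 540 pairs with different numbers. In every comparison except iCre TNFα against the other 8 groups each pair's correlation was over 0.1, and the lowest there was 0.0230. The numbers were therefore taken to pair the libraries, from the data and not from the labels. Counts and p-values come from fits without this pairing unless the block is named.

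The members and the lists were chosen with earlier results of these data known. Genes named are 16 anchors over the 7 classes, the largest and smallest called member of each class in both comparisons with the other 8 groups, members called against the majority, and genes of the functional lists. Other names were chosen after their values were seen: the genes of each short list of calls, *Cdc45*, *Mcm10*, *Cdt1* and the upstream genes described singly. Promoter windows came from RefSeq for GRCm38.p6. Pseudogene copies and overlapping exons were read from GENCODE M21.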

Additional observations from a re-analysis of the deposited data

Results flagged for a closer look

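The effect of TNFα on the 45 genes differed between viruses in a test of the difference itself for 35 genes, all higher in iCre fibroblasts, against 8.38% of all genes that were higher. Among the genes followed in full, the difference in log2 fold change was 2.44 for *Mcm5*, 2.54 for *Cdc6*, 1.26 for *Pcna*, 1.94 for *Rrm2*, 2.52 for *Tk1*, 0.68 for *E2f1* and 1.50 for *Ccne1*. It was 2.54 for *Ccnb1*, 2.27 for *Cdk1*, 1.67 for *Foxm1*, 2.84 for *Plk1* and 2.86 for *Birc5*. These differences also take in that between the CTRL libraries of both viruses. With TNFα, iCre against LacZ gave 1.48 for *Ccnb1*, 1.70 for *Cdk1*, 1.35 for *Foxm1*, 1.78 for *Plk1* and 1.69 for *Birc5*. The GC correction lost 7 of the 35 calls, those of *Tk1*, *E2f1* and *Plk1* among them. For IL-1β the difference between viruses was called for 2 genes, *Mcm7* with 0.88 and *Gins2* with 0.97, against 2.76% of all genes that were higher, and neither was called with the GC correction.

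A single library stood apart from the other 3 of its group by Dixon's ratio in 3 of the 170 sets of 4 libraries examined, where chance gives about 1 in 20. *Mcm5* was high in replicate 4 of iCre IL-1β, at 18.9 CPM. *Pcna* was low in replicate 2 of LacZ TNFα, at 25.1 CPM, and *Ccne1* was low in replicate 1 of LacZ TGFβ, at 5.93 CPM. Their causes were not tested.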

How the results depend on the processing

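Of 260 recomputed counts of members called, 176 stayed within 1.5 times the count reported and 84 did not. Of 1620 recomputed values of single genes, 1412 kept their direction and their side of the threshold, 110 lost it, 91 gained it and 7 changed sign. *Pola1* with TGFβ in iCre fibroblasts, called at −0.80, was at 0.0653 with the GC correction and 0.00665 with both. The other changes of sign were of values that were not called. *Cdk1* with TNFα in LacZ fibroblasts was at −6.76e-05 with no filter and at −0.123 to 0.14 without a replicate, *Rrm1* in iCre against LacZ with TNFα at −0.0347 to 0.212, and *Mcm7* with IL-1β in iCre fibroblasts at −0.0389 to 0.188.

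With the replicate block the counts were 27 for iCre TNFα against iCre bFGF, 22, 33, 14 and 20 for iCre against LacZ with no ligand, bFGF, TGFβ and IL-1β, 29 and 29 for TGFβ and IL-1β in iCre, 18, 27 and 30 for TGFβ, IL-1β and TNFα in LacZ, and 10 and 27 for the interactions of TGFβ and IL-1β. The numbers did not pair every library of iCre TNFα against the other 8 groups, where the block gave 45 higher in place of 44. With the GC correction and the block the counts in the same order were 28, then 22, 33, 7 and 19, then 39 and 33, then 25, 22 and 30, then 2 and 18. With the GC correction alone they were 0 and 4 for iCre against LacZ with TGFβ and IL-1β, 31 and 5 for TGFβ and IL-1β in iCre, 4 for TNFα in LacZ and 0 for the interaction of IL-1β. For the interaction of TNFα it lost 7 of the 35 calls, *Pole* (1.70), *Tk1* (2.35), *Ung* (1.61), *E2f1* (0.42), *Ccnb2* (2.18), *Plk1* (2.59) and *Cdc20* (2.23), and gained *Rfc3* (0.76) and *Cenpe* (2.22). Over the 20 comparisons 0% to 42.0% of all genes were called with the block, and 0% to 40.7% with the GC correction. With both the share was 0% to 46.0%, and for TGFβ and IL-1β it was 44.5% and 31.5% in iCre and 46.0% and 37.4% in LacZ.

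DESeq2 called 19 for iCre TNFα against iCre bFGF, 1, 5 and 13 for iCre against LacZ with bFGF, TGFβ and IL-1β, 8 and 4 for IL-1β and TNFα in LacZ, and 1 for the interaction of TGFβ, which RLE size factors and filterByExpr gave too. filterByExpr gave 2 for iCre against LacZ with TGFβ and 8 for IL-1β in LacZ. All 40 libraries in a single fit gave 11 for iCre TNFα against iCre bFGF and 4 for iCre against LacZ with TGFβ. It is itself the fit of the comparisons with the other 8 groups. Of all genes DESeq2 called 10.0% higher for iCre TNFα against iCre bFGF. In either direction it called 1.91% for iCre against LacZ with bFGF and 8.68% for the interaction of TGFβ. Over all comparisons the share ran from 0% to 40.9% with DESeq2, 63.1% with filterByExpr and 41.7% with the single fit. With a minimum log2 change of 1 the counts were 2 for iCre TNFα against iCre bFGF, 0 and 4 for iCre against LacZ with TGFβ and IL-1β, 1 for IL-1β in iCre, 5, 1 and 0 for TGFβ, IL-1β and TNFα in LacZ, and 0 for the interaction of IL-1β.

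Leaving out each replicate gave 0 to 11 for iCre TNFα against iCre bFGF, 0 to 1, 0 to 3 and 4 to 6 for iCre against LacZ with bFGF, TGFβ and IL-1β, 0 to 44 and 0 to 7 for bFGF and IL-1β in iCre, 14 to 45, 3 to 9 and 0 to 9 for bFGF, IL-1β and TNFα in LacZ, 0 to 1 and 0 to 2 for the interactions of TGFβ and IL-1β, and 11 to 35 for that of TNFα. For iCre bFGF against the other 8 groups it gave 31 without replicate 1 and 33 without replicate 3. Leaving LacZ bFGF out of the other 8 groups, chosen after seeing the data, gave 42 for iCre bFGF and 45 for iCre TNFα. The share of all genes called moved with the settings too. Its median over the 20 comparisons was 16.1% as reported, 26.9% with the block, 10.2% with the GC correction, 25.6% with both, 20.2% with DESeq2 and 27.8% with filterByExpr, and it was 10.3%, 16.5%, 5.79% and 7.78% without replicates 1, 2, 3 and 4. The causes of these changes were not tested.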
